A study of Mus musculus with 5 samples.

Results

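The genes described here are the 5 enzymes of the mouse urea cycle, the synthase of its cofactor and the 2 mitochondrial carriers that serve it: Nags, Cps1, Otc, Ass1, Asl, Arg1, Slc25a15 and Slc25a13. They were chosen by function from the symbols of a deposited table of 22287 genes, and all 8 were found and passed the expression filter. The table holds RNA sequencing of mouse liver tumours from 5 libraries, 2 wild-type (WT 1 and WT 2) and 3 of the genotype lnc-CTHCC-/- (KO 1, KO 2 and KO 3). The deleted lnc-CTHCC encodes a long non-coding RNA, and since its transcript was not analysed here, genotypes are those of the labels. All libraries came from C57BL/6 mice given DEN, a liver carcinogen, with CCl4, a liver toxicant, for 5 months, so the WT group shares that exposure and no untreated liver was analysed here. The labels give neither the sex nor the age of the mice, and do not say whether a library was made from 1 animal or from pooled tumours or which cells lost the RNA. Levels are FPKM, fragments per kilobase of gene relative to the library's total, which allows levels of different genes to be compared. The table gives no library totals, but the steps of low FPKM values put them at about 23900000 fragments in WT 1 and 28100000 to 28400000 in the other 4 libraries, so that even Nags, the lowest of the 8 genes, rested on an estimated 1320 to 2090 fragments per library.

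The urea cycle turns ammonia, which is toxic, into urea, and in mammals the complete cycle runs in hepatocytes, mainly those around the portal vein. N-acetylglutamate synthase (Nags) makes the obligatory activator of carbamoyl phosphate synthetase 1 (Cps1), which captures ammonia inside the mitochondrion, and ornithine transcarbamylase (Otc) joins the product to ornithine to give citrulline. In the cytosol argininosuccinate synthetase (Ass1) adds the nitrogen of aspartate, argininosuccinate lyase (Asl) releases arginine and fumarate, and arginase 1 (Arg1) splits arginine into urea and ornithine. Slc25a15 returns ornithine to the mitochondrion in exchange for citrulline, and Slc25a13, also called citrin, exports aspartate in exchange for glutamate. Liver tumours are known to lose or rearrange parts of the cycle.

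The 8 genes are protein-coding and lie on 8 different chromosomes of GRCm38, the assembly of mm10, by the GENCODE vM21 annotation. Of the mitochondrial enzymes, Nags (ENSMUSG00000048217) spans chromosome 11, 102145513 to 102149477, on the plus strand. Cps1 (ENSMUSG00000025991) spans chromosome 1, 67123026 to 67231259, plus, and Otc (ENSMUSG00000031173) chromosome X, 10252305 to 10321024, plus. Of the cytosolic enzymes, Ass1 (ENSMUSG00000076441) spans chromosome 2, 31470207 to 31520672, plus. Asl (ENSMUSG00000025533) spans chromosome 5, 130011258 to 130029247, minus, and Arg1 (ENSMUSG00000019987) chromosome 10, 24915221 to 24927484, minus. The carriers are Slc25a15 (ENSMUSG00000031482) on chromosome 8, 22375551 to 22398597, minus, and Slc25a13 (ENSMUSG00000015112) on chromosome 6, 6041218 to 6217173, minus.

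Limits on the levels also come from the annotation. Of all 50-base words in the annotated Ass1 transcripts, 38.6% also occur in Gm5424, a processed pseudogene that was not analysed here, so the level of Ass1 is uncertain as far as the authors' counting split such reads. The exons of Nags share 443 bases, 15.6% of its exonic length, with Gm11586, an antisense gene, and the sources used here do not say whether the counting used strand. The other 6 genes overlapped no other annotated gene, and at most 0.053% of their 50-base words (in Slc25a13) occurred in other genes.

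RefSeq promoter windows on GRCm38.p6 were found for 5 of the 8 genes, with 2 windows for Slc25a15, which has 2 start sites there. The bases after these 2 sites were not found in a GENCODE transcript of Slc25a15, unlike those after the start sites of the other genes. The upstream site, at 22398621, lies outside the GENCODE span of Slc25a15. Shown here are the 250 bases before the upstream start site of Slc25a15, the gene with the widest range between libraries, and before those of Ass1 and Otc, which like it had their highest level in WT 2, and Nags, the gene that did not. They are written 5′ to 3′ on the gene's own strand, at chr8:22398622-22398871 (minus), chr2:31470020-31470269 (plus), chrX:10252055-10252304 (plus) and chr11:102145263-102145512 (plus). Capitals mark matches to any of the motifs given after the sequences.
Slc25a15: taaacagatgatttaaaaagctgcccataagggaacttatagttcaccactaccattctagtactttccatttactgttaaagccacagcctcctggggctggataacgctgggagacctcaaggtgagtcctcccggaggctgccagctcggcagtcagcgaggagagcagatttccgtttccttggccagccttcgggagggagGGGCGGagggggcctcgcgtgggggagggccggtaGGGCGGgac
Ass1: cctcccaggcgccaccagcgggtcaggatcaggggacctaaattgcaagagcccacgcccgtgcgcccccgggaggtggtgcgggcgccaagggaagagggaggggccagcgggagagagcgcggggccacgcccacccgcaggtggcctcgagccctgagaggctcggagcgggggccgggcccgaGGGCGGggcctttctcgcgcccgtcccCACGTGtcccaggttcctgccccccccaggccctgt
Otc: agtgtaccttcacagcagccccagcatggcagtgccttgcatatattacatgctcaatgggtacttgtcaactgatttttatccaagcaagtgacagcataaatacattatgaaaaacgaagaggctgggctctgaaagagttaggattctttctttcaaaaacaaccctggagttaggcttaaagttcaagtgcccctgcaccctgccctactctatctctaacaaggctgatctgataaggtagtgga
Nags: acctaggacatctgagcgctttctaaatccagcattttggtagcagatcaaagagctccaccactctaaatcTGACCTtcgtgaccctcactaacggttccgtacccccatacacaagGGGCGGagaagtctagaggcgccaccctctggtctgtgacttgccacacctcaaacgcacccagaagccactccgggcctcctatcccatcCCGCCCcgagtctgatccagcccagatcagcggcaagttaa
Each motif was searched on both strands, and matches to different motifs were counted separately where they overlapped. Among all 32851 promoter windows of this length, 12.4% hold the core promoter motif TATAAA and 33.9% hold the box CCAAT. The Sp1 motif GGGCGG was found in 32.7%, the E-box motif CACGTG, which reads alike on both strands, in 6.02%, and the core of the cAMP response element, TGACG, in 17.8%. The C/EBP motif TTGCNNAA was in 9.56%, the nuclear receptor motif AGGTCA in 14.0% and the core of the Onecut motif, ATTGAT, in 6.72%. The Slc25a15 window shown holds 2 Sp1 motifs, the Ass1 window an Sp1 motif and an E-box, and the Nags window 2 Sp1 motifs and 1 nuclear receptor motif, whereas the Otc window holds none of the 8 motifs. Of the windows not shown, that before the downstream start site of Slc25a15 holds 5 Sp1 motifs and an E-box, and that of Slc25a13 holds an E-box, a CCAAT box and a core of the cAMP response element. The windows also differ in composition, with 75.6% G and C in Ass1, 57.6% in the Slc25a15 window shown and 80.4% in the other, 62.8% in Slc25a13, 55.6% in Nags and 43.6% in Otc, against a median of 52.4% over all windows. Of the 4 genes with a window that were highest in WT 2, Ass1, Slc25a15 and Slc25a13 each hold an E-box in at least 1 window and Otc does not, and Ass1 and Slc25a15 share the Sp1 motif with Nags. Cps1, Asl and Arg1, also highest in WT 2, have no window. These matches are a description of letters, and no link between motifs and levels was tested.

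Levels of the cycle's genes differed widely. Averaged over the 5 libraries, Arg1 had the highest level at 638 FPKM, followed by Ass1 at 478, Cps1 at 365, Asl at 93.7, Otc at 55.2, Slc25a15 at 42.2, Slc25a13 at 37.3 and Nags at 21.0 FPKM. The synthase of the activator thus had the lowest level, and the last enzyme of the cycle the highest. Of the neighbours in this order, 2 pairs had ranges that did not overlap, Cps1 with Asl and Slc25a13 with Nags. Within a library the order of Arg1 over Ass1 and of Asl over Otc held in 5 of 5, that of Ass1 over Cps1 in 4 of 5 (not in KO 1), and that of Otc over Slc25a15 in 4 of 5 (not in WT 2). The 2 carriers could not be ordered, since Slc25a15 exceeded Slc25a13 in 2 of 5 libraries, both of them WT. Together the 8 genes took 0.264% and 0.474% of the FPKM sum in WT 1 and WT 2, and 0.258%, 0.290% and 0.331% in the KO libraries, in the order of their numbers.

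Setting KO against WT asks whether transcripts of the cycle differ when lnc-CTHCC is lost. None of the 8 genes passed the test (limma on log2(FPKM + 1), Benjamini-Hochberg adjusted over 10132 genes at 0.05), where 0.00987% of all genes tested did, a single gene, Onecut1. For each of the 8 the limma adjusted p was 0.999, and none had an unadjusted p under 0.05, which 3.23% of all genes tested had. The WT and KO values overlapped in all 8 genes, while 15.1% of the genes tested had values that did not overlap. On the log2 scale of the test, the mean was lower in KO in 6 genes and higher in 2, Nags and Slc25a13. The median log2 difference of the 8 was -0.25. Over all genes tested 38.6% were lower, and the median was 0.05. The WT pair carried most of the spread: without WT 2 the median of the 8 genes was 0.13, where that of all genes was 0.16, and without WT 1 it was -0.66, where that of all genes was -0.07. Without WT 2, 2 of the 8 genes (Nags and Ass1) had the lower mean in KO, against 26.3% of all genes, and without WT 1 all but Nags did, against 60.3%. With 1 WT library left, the spread comes from the 3 KO libraries, and the lone WT library is assumed to vary as they do. In the fit without WT 1, 4 genes, Cps1, Ass1, Asl and Slc25a15, had an unadjusted p under 0.05, as did 9.73% of all genes, and none of the 8 passed after adjustment, where 0.167% of all genes did.

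Nags, the synthase of the activator, was at 22.3 FPKM in WT 1, 18.4 in WT 2, 21.8 in KO 1, 25.9 in KO 2 and 16.4 in KO 3. Its KO values surrounded the WT values, and it was the 1 gene of the 8 whose level in WT 2 lay below that in WT 1. WT averaged 20.4 ± 2.76 FPKM (SD, n = 2) against 21.4 ± 4.76 FPKM (SD, n = 3) for KO, a log2 difference of 0.05 (SE 0.219).

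Cps1, the entry enzyme for ammonia, was at 278 FPKM in WT 1, 563 in WT 2, 349 in KO 1, 261 in KO 2 and 374 in KO 3. WT 2 stood 2.03 times above WT 1, and all KO libraries lay well below WT 2 while 2 of 3 lay above WT 1. WT averaged 421 ± 202 FPKM (SD, n = 2) against 328 ± 59.4 FPKM (SD, n = 3) for KO, a log2 difference of -0.29 (SE 0.294).

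Otc, the citrulline-forming enzyme encoded on the X chromosome, was at 37.3 FPKM in WT 1, 76.0 in WT 2, 40.3 in KO 1, 48.4 in KO 2 and 74.1 in KO 3. The high libraries were 1 of each genotype, WT 2 and KO 3, and all KO values lay between the WT values. WT averaged 56.7 ± 27.4 FPKM (SD, n = 2) against 54.3 ± 17.6 FPKM (SD, n = 3) for KO, a log2 difference of -0.02 (SE 0.330).

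Ass1 was at 421 FPKM in WT 1, 738 in WT 2, 306 in KO 1, 431 in KO 2 and 492 in KO 3. KO 1 was below both WT libraries, and KO 2 and KO 3 lay between them. WT averaged 579 ± 224 FPKM (SD, n = 2) against 410 ± 94.9 FPKM (SD, n = 3) for KO, a log2 difference of -0.47 (SE 0.280). Its unadjusted limma p was 0.127. Ass1 was the 1 gene of the 8 whose difference was below 0 with every library left out in turn, from -0.88 without WT 1 to -0.07 without WT 2.

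Asl, which releases arginine and fumarate, was at 69.4 FPKM in WT 1, 151 in WT 2, 66.0 in KO 1, 93.9 in KO 2 and 88.0 in KO 3. Its level in WT 2 was 2.18 times that in WT 1 and above every KO library, and WT 1 lay within the KO range. The log2 difference was -0.32 (SE 0.309).

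Arg1, the arginase of liver, was at 577 FPKM in WT 1, 820 in WT 2, 520 in KO 1, 633 in KO 2 and 638 in KO 3. It varied least among the genes that were highest in WT 2, with WT 2 at 1.42 times WT 1. WT averaged 699 ± 172 FPKM (SD, n = 2) against 597 ± 66.6 FPKM (SD, n = 3) for KO, a log2 difference of -0.21 (SE 0.203). Arg2, the mitochondrial arginase found mostly outside the liver, was at 0.38 to 1.11 FPKM and below the expression filter.

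Slc25a15, the ornithine carrier, had the largest difference of the 8 genes. It was at 28.4 FPKM in WT 1, 95.4 in WT 2, 22.5 in KO 1, 30.5 in KO 2 and 34.1 in KO 3. A single library, WT 2, stood apart at 3.36 times WT 1, and WT 1 lay within the KO range. WT averaged 61.9 ± 47.4 FPKM (SD, n = 2) against 29.0 ± 5.95 FPKM (SD, n = 3) for KO, a ratio of 0.469 and a log2 difference of -0.84 (SE 0.426). Its unadjusted limma p was 0.0796. Without WT 1 the difference was -1.70 (limma adjusted p = 0.0785) and without WT 2 it was 0.01 (limma adjusted p = 0.988), both with the spread of the KO libraries alone. In the authors' deposited table Slc25a15 has a p-value of 0.00795 and a false discovery rate of 0.723, and no other gene of the 8 has a smaller rate there.

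Slc25a13, the aspartate and glutamate carrier, was at 26.9 FPKM in WT 1, 48.6 in WT 2, 33.4 in KO 1, 34.3 in KO 2 and 43.3 in KO 3. As in Otc, all KO values lay between the WT values, which was so in these 2 of the 8 genes and in 23% of all genes tested. WT averaged 37.7 ± 15.3 FPKM (SD, n = 2) against 37.0 ± 5.51 FPKM (SD, n = 3) for KO, with a log2 difference of 0.02 (SE 0.254). The mean of Slc25a13 was thus slightly lower in KO as FPKM and slightly higher as log2(FPKM + 1). The ratio of Slc25a15 to Slc25a13, a comparison chosen after the values were seen, was 1.06 and 1.96 for the WT pair against 0.673, 0.892 and 0.787 for KO. These ratios did not overlap between genotypes, but how often ratios of other gene pairs do so was not counted. The ratio in WT 1 lay nearer to that in KO 2 than to that in WT 2, and no test was run on them.

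**Figure D1:**
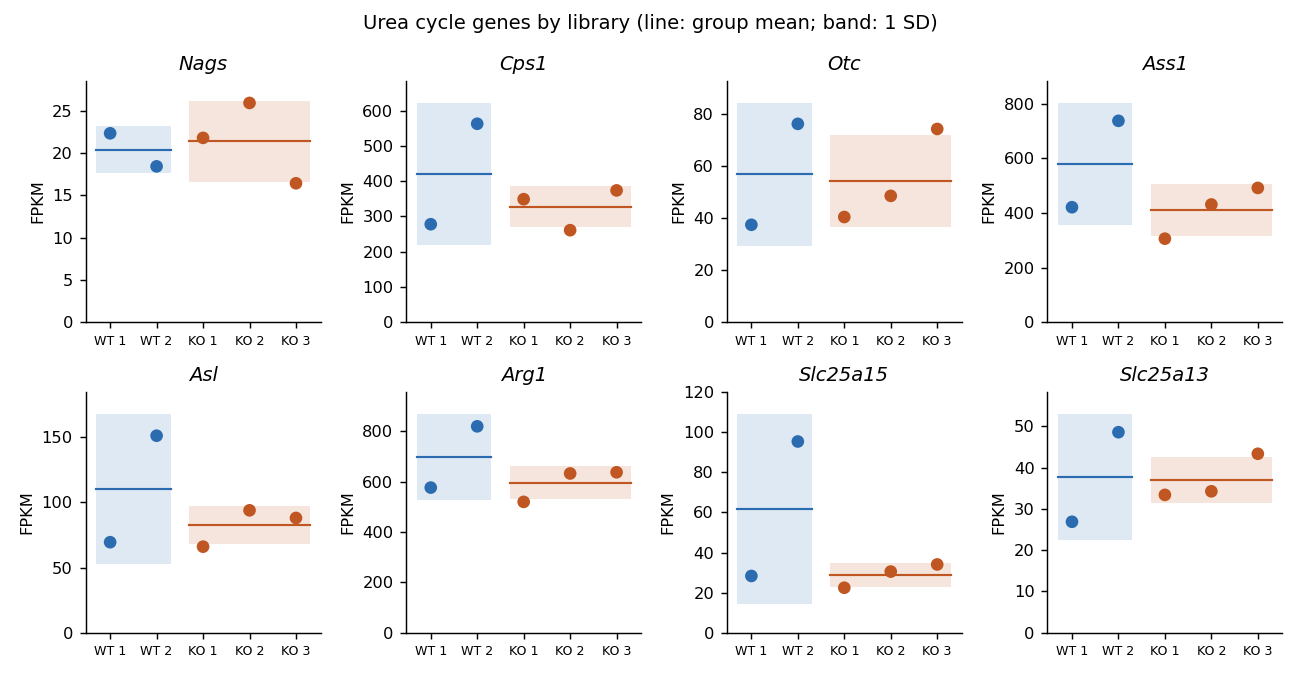
Level of each urea cycle gene in FPKM (vertical axes from 0, 1 panel per gene) in the 2 WT (blue) and 3 KO (orange) libraries, with the group mean as a line and 1 SD as a band. In 7 of the 8 panels WT 2 is the highest point, and in every panel the WT and KO points overlap.

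The pattern that 7 of the 8 genes shared was a high value in a single WT library. WT 2 was the highest of the 5 libraries in every gene but Nags, while it was the highest in 35% of all genes tested. It exceeded WT 1 by at least 1.5 times in 6 of the 8 genes, against 26.6% of all genes. After median-ratio rescaling or quantile normalization 6 of 8 were highest in WT 2, with Otc then highest in KO 3, against 23.8% and 24.2% of all genes. Each gene's log2(FPKM + 1) was centred on its own mean over the libraries, and the median of these deviations over the 8 genes was -0.34 in WT 1, 0.60 in WT 2, -0.33 in KO 1, -0.09 in KO 2 and 0.05 in KO 3. WT 1 and KO 1 were thus about equally low, and the median over all genes tested stayed between -0.15 (WT 1) and 0.09 (KO 1) in the 5 libraries.

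**Figure D2:**
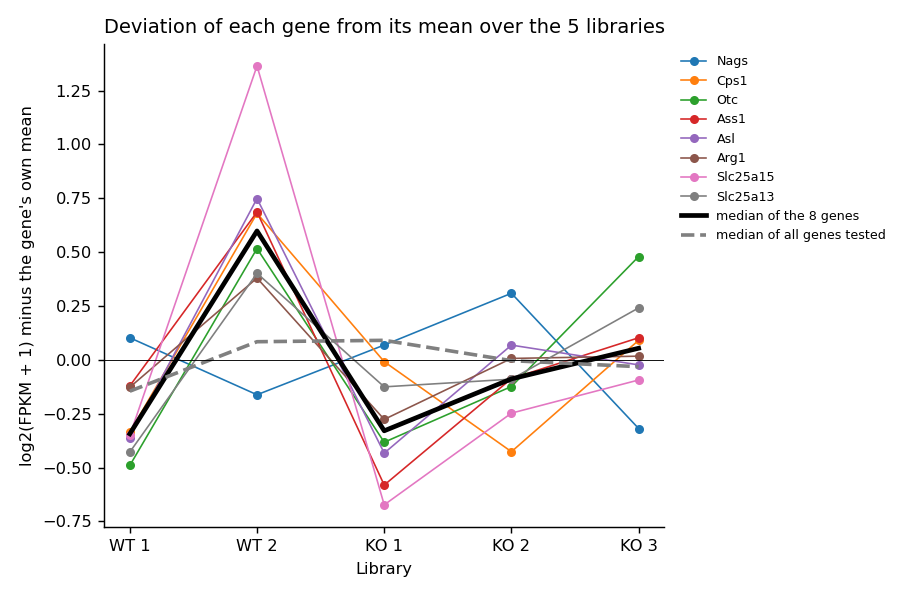
Deviation of log2(FPKM + 1) from each gene's own mean (vertical axis) in each library (horizontal axis, in no particular order within a genotype) for the 8 genes, with their median in black and the median of all genes tested as a dashed grey line. The black line reaches 0.60 in WT 2, where Slc25a15 lies highest and Nags is the only gene below 0.

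The genes did not all follow that library profile to the same extent. The share of Arg1 in the summed FPKM of the 8 genes was lowest in WT 2 (32.7%) and lay between 36.2% and 40.6% in the other 4 libraries. Slc25a15 took 3.80% of the sum in WT 2 and between 1.65% and 1.96% elsewhere. Nags took 0.734% in WT 2 and 0.933% in KO 3, against 1.53% to 1.66% in the other 3. For consecutive enzymes, the ratio of Ass1 to Asl stayed between 4.59 and 6.07 over the libraries and that of Cps1 to Otc between 5.05 and 8.66, whereas that of Cps1 to Nags ranged from 10.1 in KO 2 to 30.6 in WT 2.

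**Figure D3:**
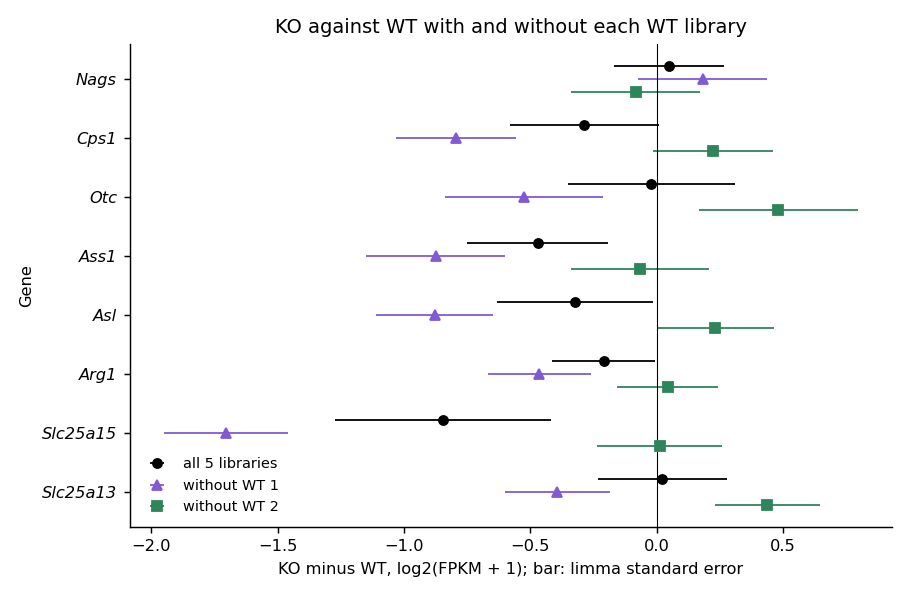
KO minus WT difference in log2(FPKM + 1) (horizontal axis) of each gene, with limma's standard error as a bar, from all 5 libraries (black), without WT 1 (violet) and without WT 2 (green). For 7 of the 8 genes the violet point lies furthest to the left and the green point furthest to the right, and for Slc25a15 they lie at -1.70 and 0.01.

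By a rule of likeness, the genes whose profile over the 5 libraries was closest to the median profile of the 8 were Mbl1, Fh1, Slc38a4, Khk and Lrpprc. The measure was the root mean square difference of the centred log2 values, among genes with a mean of at least 10 FPKM, and it was between 0.0562 (Mbl1) and 0.0895 (Lrpprc). Mbl1, a mannose-binding lectin secreted by the liver, was at 16.1 and 30.5 FPKM for the WT pair against 15.3, 19.1 and 22.6 for KO. Fh1, the fumarase that takes up the fumarate released by Asl, was at 30.8 and 59.3 FPKM for the WT pair against 31.8, 38.8 and 38.4 for KO. Both were highest in WT 2 and low in WT 1 and KO 1. Slc38a4, a transporter of neutral amino acids, was at 115 and 212 FPKM for the WT pair against 120, 147 and 162 for KO. Khk, the ketohexokinase of fructose metabolism, had 105 and 179 FPKM in WT, and Lrpprc, a regulator of mitochondrial RNA, 18.3 and 33.3 FPKM.

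Genes that bring nitrogen to the cycle were highest in WT 2 about as often as genes at large. Of 11 such genes tested, none passed the test in either direction, 4 had their higher mean in KO and 7 in WT, and 4 were highest in WT 2, with a median log2 difference of -0.06. Got1, the cytosolic aspartate aminotransferase, did resemble the cycle at 45.7 and 106 FPKM for the WT pair against 35.5, 52.3 and 46.9 for KO (log2 difference -0.64, SE 0.326). Car5a, the mitochondrial carbonic anhydrase that supplies bicarbonate to Cps1, was at 7.43 and 10.8 FPKM for the WT pair against 5.01, 6.10 and 8.28 for KO. Gpt2, an alanine aminotransferase, had a log2 difference of 0.25. Glul, the glutamine synthetase of hepatocytes around the central vein, which removes ammonia that the cycle leaves, was at 17.3 and 35.6 FPKM for the WT pair against 27.1, 17.3 and 27.0 for KO. Like the periportal cycle, Glul was highest in WT 2, and its genotypes overlapped.

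Transporters of amino acids and mitochondrial carriers resembled the cycle. Of 11 listed, 8 were tested, none passed, all 8 had a lower mean in KO and all 8 were highest in WT 2, with a median log2 difference of -0.24 that was 0.01 without WT 2. Slc25a22, which carries glutamate into the mitochondrion, was at 42.4 and 48.1 FPKM for the WT pair against 25.6, 26.7 and 21.1 for KO. Unlike the 8 cycle genes it did not overlap between genotypes, as the 1 gene of the 8 tested here, against 15.1% of all genes tested. It did not pass (log2 difference -0.87, SE 0.177, limma adjusted p = 0.705), and its difference lay between -0.95 and -0.77 with any 1 library left out. Slc38a3, a glutamine transporter, was at 425 and 524 FPKM for the WT pair against 320, 448 and 408 for KO, and Slc38a2, another amino acid transporter, had a log2 difference of -0.40. Slc25a12, the paralog of Slc25a13, was at 3.57 and 5.59 FPKM for the WT pair against 3.45, 3.12 and 4.0 for KO, so that Slc25a13 was the more abundant carrier of the pair in every library.

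Enzymes that use ornithine, arginine and polyamines showed no common direction. Of 12 listed, 11 were tested, none passed, 6 had their higher mean in KO and 5 in WT, and the median log2 difference was 0.02. Sat1, the polyamine acetyltransferase, was at 25.6 and 29.2 FPKM for the WT pair against 32.6, 32.0 and 36.9 for KO (log2 difference 0.30, SE 0.168). Azin1, the antizyme inhibitor, was at 15.1 and 20.9 FPKM for the WT pair against 14.4, 13.6 and 14.4 for KO. Sms, spermine synthase, was at 1.94 and 2.28 FPKM for the WT pair against 2.41, 2.56 and 2.84 for KO. In these 3 of the 11 genes the genotypes did not overlap, as in 15.1% of all genes tested, and none passed. Sms and Gamt, which makes creatine, had log2 differences of 0.21 and 0.24.

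The enzymes after fumarate and those of pyrimidine synthesis, a pathway that also uses carbamoyl phosphate, had lower means in KO without passing. Of 4 fumarate and malate genes tested, none passed and all 4 were lower on average (median log2 difference -0.22, and 0.08 without WT 2). Mdh1 and Mdh2, the malate dehydrogenases, had log2 differences of -0.20 and -0.19, Fh1 of -0.24 and Me1, malic enzyme, of -0.34. Of 3 pyrimidine synthesis genes, none passed and all were lower (median -0.13, and 0.18 without WT 2). Cad, a multi-domain enzyme that makes carbamoyl phosphate in the cytosol, was at 1.89 and 4.20 FPKM for the WT pair against 2.91, 2.90 and 1.93 for KO, far below Cps1 in every library. Umps and Dhodh had log2 differences of -0.15 and -0.06.

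Of 8 known regulators of urea cycle genes tested, 3 were highest in WT 2 and none passed. The higher mean was in KO for 5 and in WT for 3, with a median log2 difference of 0.06. Cebpa, a transcription factor of hepatocytes needed for the cycle's genes in mice, was at 79.6 and 47.8 FPKM for the WT pair against 101, 108 and 81.9 for KO. It was lowest in WT 2, the library in which 7 of the 8 cycle genes were highest. Of the 8 regulators, Cebpa was the 1 whose values did not overlap between genotypes, against 15.1% of all genes tested. It did not pass (log2 difference 0.63, SE 0.236, limma adjusted p = 0.999). Its difference was 0.27 without WT 2 and 0.99 without WT 1. Cebpb had a log2 difference of -0.35, Nr3c1, the glucocorticoid receptor, of 0.28, and Ppargc1a, a coactivator of the fasting response, of -0.24.

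**Figure D4:**
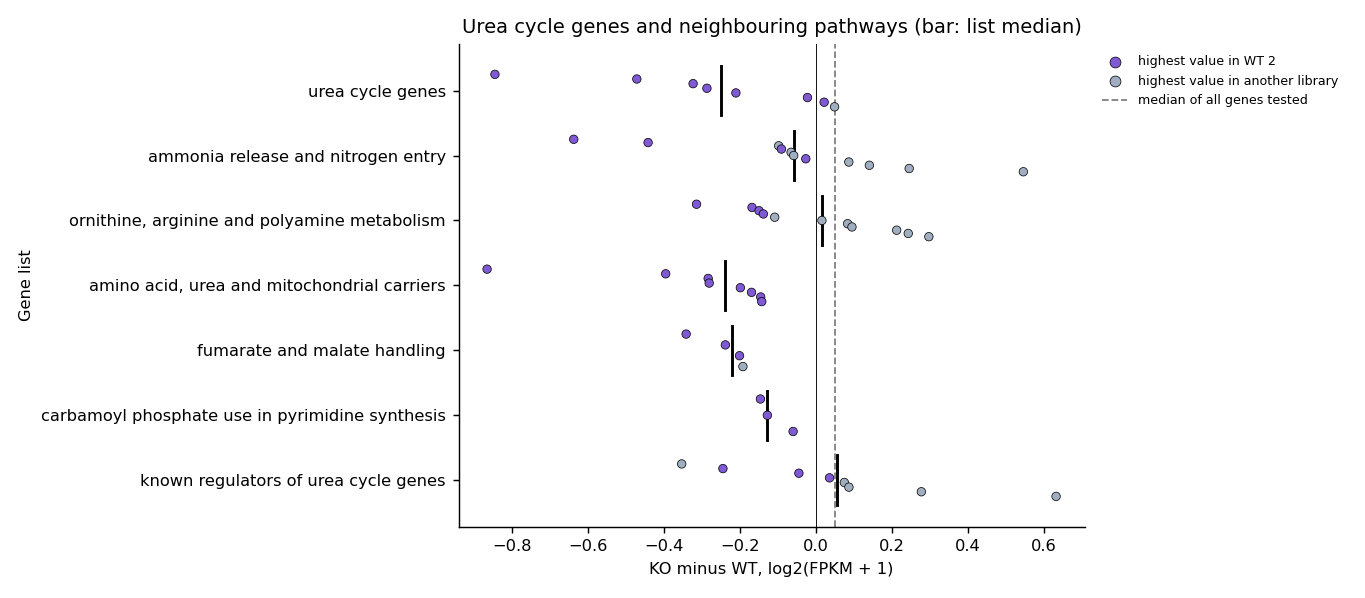
KO minus WT difference in log2(FPKM + 1) (horizontal axis) of every tested gene of the urea cycle and of 6 neighbouring lists, with the list median as a black bar and genes that were highest in WT 2 in violet. All 8 transporters and 7 of the 8 urea cycle genes are violet, and no gene shown passed the test.

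Markers of the tissue were read for the same libraries. Hepatocyte markers were high in all libraries, with Alb at 74739 to 94258 FPKM, and their sum, most of it Alb and Apoa1, was lowest in WT 2 (98408 FPKM) and highest in WT 1 (128235 FPKM). Single hepatocyte markers went either way, with Tat at 194 FPKM in WT 1 and 551 in WT 2, and the median of their centred log2 values was 0.07 in WT 1 and 0.04 in WT 2. The mean was higher in KO for 4 of the 8 and lower for 4. Ttr was the 1 of the 8 that did not overlap between genotypes. It was at 4216 and 2955 FPKM for the WT pair against 2387, 2353 and 2604 for KO (log2 difference -0.53, SE 0.202, limma adjusted p = 0.999). Periportal markers had a lower mean in KO in 9 of 9, with none past the test, and 8 of 9 were highest in WT 2. Their median log2 difference was -0.72, and -0.50 without WT 2, where that of the cycle was 0.13. In 4 of the 9, Sds, Hal, Aldh1b1 and Etnppl, WT and KO did not overlap (15.1% of all genes tested) and the unadjusted limma p was under 0.05 (3.23% of all genes tested). Hal, the histidine ammonia-lyase, was at 46.0 and 58.6 FPKM for the WT pair against 14.1, 18.1 and 28.3 for KO (log2 difference -1.38, SE 0.273, limma adjusted p = 0.643), and Sds, the serine dehydratase, had a log2 difference of -1.41. These markers were singled out after their values were seen. The summed level of the list was 1053 and 1561 FPKM for WT and overlapped between genotypes, with a KO range of 703 to 1184. Of the pericentral markers 4 of 9 were tested, of which Glul was the 1 that was highest in WT 2, and their sum was 133 and 279 FPKM for WT, with a KO range of 128 to 392. In bulk tissue fewer cells of a type and less RNA per cell cannot be told apart.

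Markers of other cells were present at lower levels. B and plasma cell markers, of which 3 of 5 were tested, summed to 91.3 FPKM in WT 1, 243 in WT 2 and 25.4 to 73.0 in KO, most of it Igkc and Jchain. The 3 tested, Igkc, Jchain and Mzb1, were highest in WT 2, whereas Cd79a was highest in WT 1 and Ms4a1 lowest in WT 2 (0.05 FPKM). All KO values of these 3 tested genes lay below both WT values, where 15.1% of all genes tested did not overlap in either direction. Their median log2 difference was -1.54, and -0.77 without WT 2, and none passed the test. Cd79a and Ms4a1, below the filter, overlapped between genotypes. Cholangiocyte markers summed to 150 and 423 FPKM for WT, with a KO range of 154 to 348, most of it Spp1, which other cells also express, while Krt19 was at 0.61 to 1.81 FPKM. Macrophage markers summed to 54.8 and 55.9 FPKM for WT, with a KO range of 37.6 to 96.6. Stellate cell markers summed to 35.7 and 49.4 FPKM for WT, with a KO range of 33.3 to 55.3, and endothelial markers to 47.3 and 41.7 FPKM for WT, with a KO range of 43.0 to 61.5. Neutrophil markers summed to 6.31 and 5.25 FPKM for WT, with a KO range of 4.65 to 8.22, and T and NK cell markers, none of which passed the filter, to 5.30 and 2.35 FPKM, with a KO range of 1.32 to 2.41. Of the enterocyte markers, looked at because the gut also expresses Cps1 and Otc, Sis was at 0 in all libraries and Fabp2, which hepatocytes may express too, made up most of the sum. Vil1, another of that list, was at 2.20 and 4.59 FPKM for the WT pair against 0.30, 0.04 and 0.11 for KO (log2 difference -1.89, SE 0.252, limma adjusted p = 0.111), whereas Fabp2 had a log2 difference of 0.37. The part of these cells in the WT 2 profile was not tested.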

How the data were processed

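Per the file headers, the authors deposited 1 table with an FPKM value per gene and library, their mean FPKM per genotype, their log2 fold change of KO over WT, and their p-value and false discovery rate. The submitters' processing notes list StringTie, HISAT2, limma, DESeq2 and bcl2fastq 2.0, with no role or order, and the build mm10. The sources used here do not give the tool behind the authors' p-values, the annotation or the strand setting. In low genes with 1 annotated transcript, FPKM times length fell within 0.1 of a whole multiple of 1 step for 50.6% to 56.7% of values, with the step chosen to maximise that share (any preset step gives 20% by chance), and the step gave the estimated library totals. These steps do not return counts for most genes, so no count model was used, and the estimates cover neither effective lengths nor shared reads.

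Groups and replicate numbers come from the sample titles, which do not say that samples came from separate animals, so p-values reflect the spread of these samples alone, and that spread may be technical. The test of KO against WT was that of limma 3.58.1 (R 4.3.3) on log2(FPKM + 1), for 10132 genes averaging at least 1 FPKM. It was two-sided, used empirical Bayes with a trend and 3 residual degrees of freedom, and was tested on simulated data. Differences are KO minus WT on that scale, which understates changes of low genes. The members, the 6 pathway lists and the marker lists were chosen with earlier results of these data known. All 8 genes were named whatever their values, as were Glul, Car5a, Arg2 and Slc25a12, with up to 4 genes per pathway list by the smallest unadjusted p and the 5 genes closest in profile. 1 gene that this rule names is not reported here. Any other gene named was chosen after its values were seen.

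Alternatives were quantile normalization, median-ratio rescaling, rescaling to a common FPKM sum, a fit without trend, pseudocounts of 0.1 and 5, a filter at a mean of 5 FPKM, no filter, the replicate number as block, and each library left out in turn. Positions come from GENCODE vM21, in which 22253 of the 22287 identifiers were found. Promoter windows come from RefSeq (GRCm38.p6). Plots were made in Python 3.11.15 with matplotlib 3.10.9.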

Additional observations from a re-analysis of the deposited data

How the results depend on the processing

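None of the 8 urea cycle genes passed the limma test under any of the 14 alternatives. With the main settings 0 had an unadjusted p under 0.05. With the replicate number as a block, Slc25a15 and Ass1 did (limma unadjusted p = 0.00059 and 0.0169). Over all genes, 1 passed with all libraries, 0 with quantile normalization, median-ratio rescaling, rescaling to a common FPKM sum, a pseudocount of 5, a filter at a mean of 5 FPKM or no filter, and 0 to 17 with 1 library left out, where 17 was reached without WT 1.

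The titles do not say that same-numbered libraries were paired. Across genes, deviations of same-numbered libraries correlated at 0.0884 (replicate 1) and -0.24 (replicate 2), and those of WT 2 and KO 3 at 0.319. The deviations of the WT pair mirror each other, so these correlations cannot decide whether libraries were paired. With the replicate number as a block, which leaves KO 3 without a partner, 62 genes passed, none of the 8 among them. Slc25a15 had a limma adjusted p = 0.0893 there. The block leaves almost no residual spread per gene, so these p-values rest mainly on the variance estimated across all genes. In that fit the difference of Slc25a13 turned to -0.094 and that of Cad to 0.011.

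The direction of the cycle's genes depends on WT 2. The median log2 difference of the 8 genes lay between -0.66 (without WT 1) and 0.13 (without WT 2) with 1 library left out, and between -0.32 and -0.22 under the other settings. With 1 library left out, differences ranged from -0.10 to 0.22 for Nags, -0.79 to 0.22 for Cps1, -0.53 to 0.48 for Otc, -0.88 to 0.23 for Asl, -0.46 to 0.043 for Arg1, -1.70 to 0.013 for Slc25a15 and -0.39 to 0.44 for Slc25a13. Those of Ass1 kept their sign. Near 0, Nags turned to -0.0090 and Slc25a13 to -0.036 after median-ratio rescaling, and Otc to 0.0030 after rescaling to a common FPKM sum.

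Of the other genes named, those whose sign turned with 1 library left out were Gamt (-0.039 to 0.53), Slc38a2 (-0.84 to 0.048), Me1 (-0.93 to 0.24), Fh1 (-0.70 to 0.22), Umps (-0.43 to 0.14), Cad (-0.55 to 0.30), Dhodh (-0.29 to 0.18), Nr3c1 (-0.048 to 0.60), Glul (-0.59 to 0.41), Mbl1 (-0.67 to 0.21), Slc38a4 (-0.58 to 0.29), Khk (-0.70 to 0.056) and Lrpprc (-0.58 to 0.25). Ppargc1a fell below the expression filter without WT 2 and has no value there, and genes averaging under 5 FPKM have none under that filter. The count of genes highest in WT 2 was 6 or 7 of 8 under the rescalings and 7 without any 1 KO library, settings chosen after seeing the data. At the estimated depth counting error is small for these 8 genes, and 2 WT libraries limit what any of these comparisons can show.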
